A study of Mus musculus with 12 samples.

Results

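RNAseq counts of 10 mouse genes were examined in a bone cell line after inhibition of the oxygen-sensing prolyl hydroxylases: Cited2, Rora, Ankrd37, Mxi1, Ccng2, Ddit4, Sesn2, Ndrg1, Stc2 and Ankzf1. The genes were chosen by name as growth brakes and feedback regulators known to respond to hypoxia-inducible factor (HIF), and each is 1 of the 56350 genes in the deposited table. The choice was made with earlier results of these data known. Shares of the 10 set against all genes therefore describe the set and are no test of it. All 10 had more than 10 counts in at least 3 libraries and were among the 16484 genes tested. The cells were MPC2, 1 clone of a conditionally immortalized mouse mesenchymal line that divides at 33 °C and stops dividing at 37 °C. The undifferentiated cells are called MSCs and were kept at 33 °C, and the osteocytes were the same line after 3 weeks at 37 °C with ascorbic acid and beta-glycerophosphate. Both were treated for 48 hours with DMSO (vehicle) or with 50 µM FG-4592 (Roxadustat), a prolyl hydroxylase inhibitor, which gave 4 conditions of 3 libraries each. The labels name no engineered deletion in any library. Temperature, media and time in culture differed together between MSCs and osteocytes and cannot be told apart, whereas FG-4592 and vehicle were compared within each cell type.

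When oxygen is plentiful, prolyl hydroxylases mark the alpha subunits of HIF for destruction, and their inhibition lets HIF accumulate and act on genes that hold its recognition letters. Part of that response restrains itself or restrains growth. Some targets limit HIF, some oppose the growth-promoting factor MYC or the cell cycle, and some dampen mTORC1, the kinase complex that drives protein synthesis. In osteocytes, which live enclosed in mineralized bone with little oxygen, HIF signalling is known to influence bone mass.

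Total counts ranged from 52829185 to 68108470 per library, and levels are given as CPM, the count scaled by the normalized library size. A count of 0 would still allow up to 3 counts, which is 0.0447 to 0.0545 CPM in these libraries, and this limit covers counting error only. The osteocyte label was checked against 15 bone lineage markers. In vehicle-treated osteocytes against MSCs, 4 of the 12 tested were called higher (Dmp1, Phex, Bglap and Bglap2), against 9.83% of all genes, and the other 8 were not called, among them Ibsp at log2 -0.74, Alpl at -0.33 and Col1a1 at -0.03. Mepe, Sost and Pdpn stayed at or under 3 counts in all 12 libraries. With FG-4592, 4 of the 12 fell in MSCs (5.17% of all genes), among them Dmp1 (-2.44) and Phex (-1.53). In osteocytes 5 fell (4.26%) and 1 rose (6.25%). Phex (-4.35) and Dmp1 (-2.44) were lower there and Fgf23 (5.81, but 9.63 without vehicle-treated osteocyte library 1) was higher. The summed CPM of the 15 bone lineage markers was 11576 to 12654 in MSCs and 12775 to 15240 in osteocytes. The summed CPM of 6 adipocyte markers was 69.9 to 89.1 in MSCs and 1683 to 2310 in osteocytes, with Lep at or under 3 counts in all libraries. Of the 5 tested, 4 were called higher in vehicle-treated osteocytes than in vehicle-treated MSCs, against 9.83% of all genes. The median log2 fold change of these 5 was 7.56, against 0.50 for the 12 bone lineage markers. Cartilage markers summed to 85.4 to 94.0 CPM in vehicle-treated MSCs, 148.3 to 164.7 with FG-4592, 115.0 to 135.8 in vehicle-treated osteocytes and 376.4 to 456.3 with FG-4592, with Acan at or under 3 counts throughout. Blood and vessel markers summed to 3.43 to 21.0 CPM, highest in vehicle-treated osteocytes. The part of these markers in the results that follow was not tested. The labels do not say whether the 3 libraries of a condition came from separate cultures, so p-values measure the spread between these libraries, and fewer cells of a type and less RNA per cell cannot be told apart.

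The promoters are shown first because HIF recognises a short core, and the 10 genes can be read against it. RefSeq windows of 300 bases on GRCm38.p6, the build mm10, were found for 9 of the 10 genes and not for Ndrg1. They reach from 250 bases before a start site to 50 after it, and Mxi1 has 3 of them. Both strands were searched for ACGTG, the usual HIF core, and for GCGTG, its common variant. ACGTG was present in windows of 6 genes and in 19.6% of 32851 mouse windows. GCGTG was present in 5 genes and in 32.4% of all windows. At least 1 of both was present in 8 genes and in 43.8% of all windows. Genes with more windows have more chances of a match, and a match is a run of letters, not a measured binding site.

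The stretches below run 5′ to 3′ in the direction of the gene and keep only bases outside annotated exons, except for Ankzf1. Capitals mark ACGTG or GCGTG, or their reverse forms CACGT and CACGC. Ankrd37, with the largest response to FG-4592 of the 10, has ACGTG at position -241 from its start and again at -6, past the end of the stretch, and a GCGTG pair that overlaps at -155 (chr8:45999868-46000100, minus strand).
Ankrd37: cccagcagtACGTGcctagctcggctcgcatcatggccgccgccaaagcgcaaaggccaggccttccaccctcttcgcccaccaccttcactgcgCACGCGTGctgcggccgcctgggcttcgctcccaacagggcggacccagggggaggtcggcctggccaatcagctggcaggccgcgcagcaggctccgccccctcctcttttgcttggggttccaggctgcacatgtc
Cited2, whose response differed most between the cell types, holds the palindrome CACGTG at -153, which reads as ACGTG on both strands and is also the letters of an E-box (chr10:17722978-17723217, plus strand). CACGTG was present in 7.2% of all windows.
Cited2: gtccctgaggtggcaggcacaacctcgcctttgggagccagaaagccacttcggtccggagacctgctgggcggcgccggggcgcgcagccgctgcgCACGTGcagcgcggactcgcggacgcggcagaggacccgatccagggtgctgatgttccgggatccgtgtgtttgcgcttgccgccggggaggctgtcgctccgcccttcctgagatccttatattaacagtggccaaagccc
Ddit4 has ACGTG at -187 and GCGTG at -115 (chr10:59951835-59952020, minus strand).
Ddit4: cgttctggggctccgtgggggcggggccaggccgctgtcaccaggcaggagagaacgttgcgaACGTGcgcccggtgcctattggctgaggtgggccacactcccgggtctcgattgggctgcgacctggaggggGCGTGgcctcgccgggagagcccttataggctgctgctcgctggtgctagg
Mxi1 has ACGTG at -66 from the second of its start sites (chr19:53329163-53329412, plus strand), while the window of its first start site has neither run of letters.
Mxi1: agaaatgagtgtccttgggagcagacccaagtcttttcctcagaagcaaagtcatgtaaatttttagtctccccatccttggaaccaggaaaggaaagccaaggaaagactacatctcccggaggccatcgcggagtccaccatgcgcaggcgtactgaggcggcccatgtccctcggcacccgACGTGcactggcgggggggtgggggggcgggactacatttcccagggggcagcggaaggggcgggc
Rora has both runs of letters in reverse, at -187 and -167 (chr9:68653536-68653785, plus strand).
Rora: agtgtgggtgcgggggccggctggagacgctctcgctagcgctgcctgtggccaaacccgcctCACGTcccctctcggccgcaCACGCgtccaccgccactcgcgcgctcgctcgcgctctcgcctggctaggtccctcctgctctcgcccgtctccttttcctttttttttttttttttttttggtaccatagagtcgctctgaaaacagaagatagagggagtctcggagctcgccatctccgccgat
Sesn2, whose mean was not higher with FG-4592 in either cell type, has neither run of letters in its window (chr4:132510502-132510706, minus strand).
Sesn2: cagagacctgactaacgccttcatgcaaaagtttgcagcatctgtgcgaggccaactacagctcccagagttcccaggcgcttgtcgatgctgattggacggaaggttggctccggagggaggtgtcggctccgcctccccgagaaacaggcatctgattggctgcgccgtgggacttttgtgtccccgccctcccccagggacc
For Ankzf1 only 29 bases round its ACGTG at -41 are given, since they lie in an exon of the opposite-strand gene Atg9a (chr1:75192107-75192135, plus strand).
Ankzf1: atagtgtgctctACGTGatgaggggctgg
Stc2, with very few counts, has GCGTG in both directions and was not called with FG-4592 in either cell type. Ccng2, called higher with FG-4592 in both cell types, has GCGTG once in reverse. Neither Stc2 nor Ccng2 has ACGTG in its window. Whether these letters go with the response was not tested.

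FG-4592 raised most of these genes in both cell types. A gene was called when its absolute log2 fold change exceeded 1 and its FDR, the Benjamini-Hochberg adjusted p of edgeR's quasi-likelihood test over all genes, was under 0.05. In MSCs 6 of 10 were called higher (Ankrd37, Ndrg1, Mxi1, Rora, Ccng2 and Ankzf1), against 4.12% of all genes tested. In osteocytes 8 of 10 were called higher, these 6 with Cited2 and Ddit4, against 6.25% of all genes. Since the 10 were chosen as known HIF responders with these data in view, such shares are descriptive. The median log2 fold change of the 10 was 1.41 in MSCs and 2.01 in osteocytes, where the medians of all genes were -0.05 and 0.0015. The summed CPM of the 10 was 336.1 to 342.9 in vehicle-treated MSCs and 875.7 to 894.1 with FG-4592, and it was 279.9 to 296.4 and 1233 to 1346 in osteocytes.

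**Figure D1:**
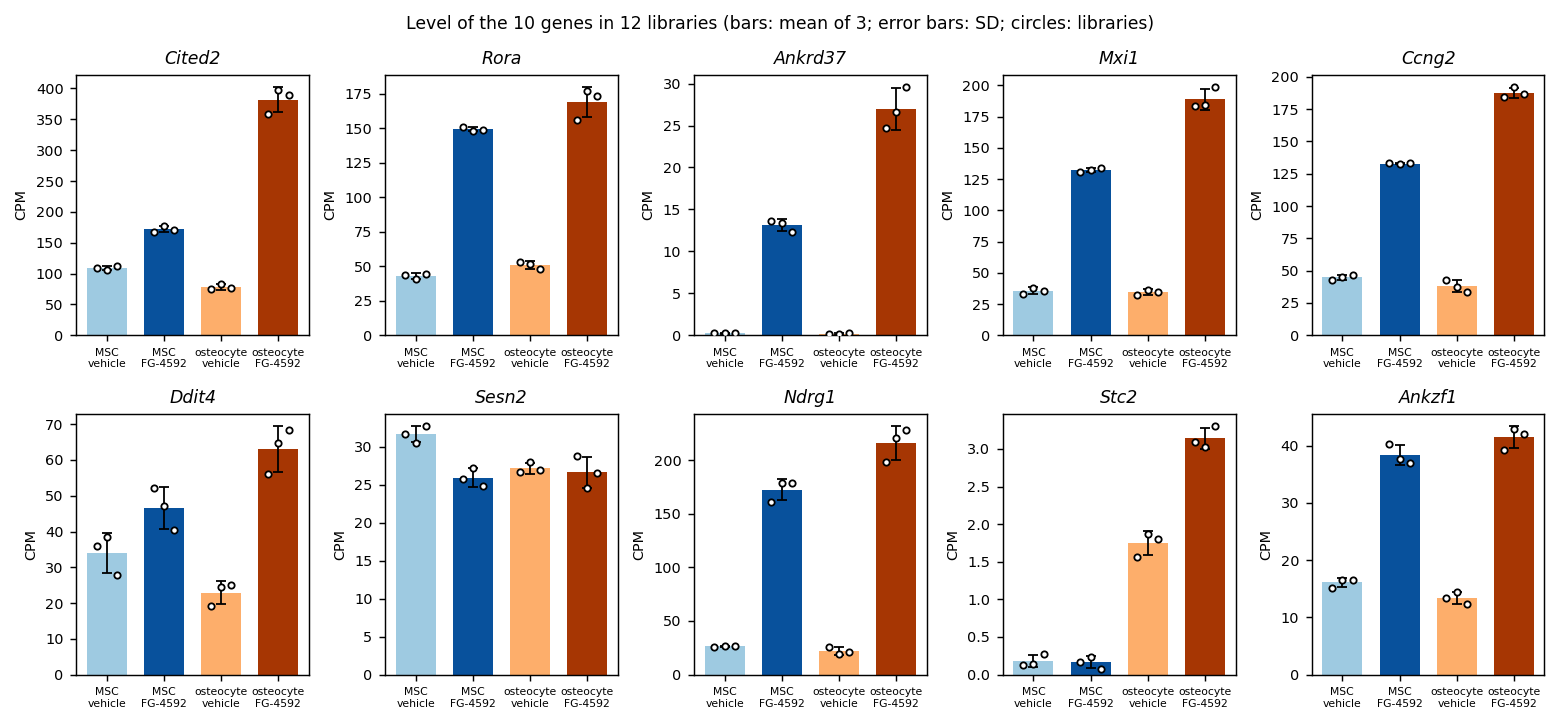
Level of each of the 10 genes in CPM (vertical axis from 0, its own scale in each panel) in the 4 conditions. Bars are means of 3 libraries, error bars are SD and circles are single libraries. Cited2 in FG-4592-treated osteocytes sits at 359.1 to 398.1 CPM, above every library of the other conditions, and Sesn2 stays between 24.6 and 32.7 CPM in all 12 libraries.

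Among the genes that act on HIF or beside it, Cited2 encodes a nuclear protein that competes with HIF for the coactivators CBP and p300 and so limits HIF-driven transcription. Its level was 108.6, 105.4 and 111.5 CPM in the vehicle-treated MSCs and 168.1, 177.7 and 169.9 CPM in the FG-4592-treated MSCs. In osteocytes it was 75.1, 82.9 and 76.6 CPM with vehicle and 359.1, 398.1 and 389.0 CPM with FG-4592. The libraries of the 4 conditions did not overlap, with vehicle-treated osteocytes lowest and FG-4592-treated osteocytes highest. In MSCs the log2 fold change was 0.66 (SE 0.0530, edgeR FDR 4.92e-08), past the FDR cutoff and short of the fold cutoff. In osteocytes it was 2.29 (SE 0.0552, edgeR FDR 1.29e-14), or 4.89-fold. Cited2 lies on chromosome 10 (mm10, 17723218 to 17725674, plus strand) and shares no exonic base with another gene.

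Ankrd37, a small ankyrin-repeat protein often used as a readout of HIF, was nearly off without FG-4592. The vehicle-treated MSCs had 12, 16 and 14 counts, or 0.218, 0.267 and 0.220 CPM, and the vehicle-treated osteocytes had 8, 7 and 17 counts, or 0.120, 0.126 and 0.277 CPM. With FG-4592 the level was 13.6, 13.4 and 12.4 CPM in MSCs and 24.7, 26.6 and 29.6 CPM in osteocytes. Treated and vehicle libraries were far apart in both cell types, and the vehicle libraries of MSCs and osteocytes overlapped. The rise was 55.4-fold in MSCs (95% interval 42.4 to 72.3, edgeR FDR 4.81e-13) and 152.9-fold in osteocytes (116.1 to 201.3, edgeR FDR 2.83e-14). By log2 fold change Ankrd37 stood in place 39 of 16484 genes in MSCs and in place 23 in osteocytes. Of its 1539 exonic bases on chromosome 8 (45996902 to 46005707, minus strand), 349 are shared with Lrp2bp (0 to 77 counts) and 57 with Ufsp2 (1574 to 3781 counts), both on the opposite strand. A read pair there was counted for both genes. Ufsp2 had log2 fold changes of 0.53 in MSCs and 0.46 in osteocytes. Lrp2bp rose with FG-4592 by 5.66 (edgeR FDR 0.00228) and 3.99 (edgeR FDR 0.00333), fitted values that depend on the prior count, and it never exceeded 77 counts, where treated libraries had 791 to 1793 for Ankrd37.

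Rora encodes a nuclear receptor of the circadian and metabolic programmes and is known as a HIF target. Its level was 43.3, 40.8 and 44.5 CPM in vehicle-treated MSCs and 151.0, 148.2 and 148.3 CPM with FG-4592. Osteocytes had 53.2, 51.9 and 47.9 CPM with vehicle and 156.2, 177.1 and 173.0 CPM with FG-4592. The rise was of like size in both cell types, with log2 fold changes of 1.80 (SE 0.0585, edgeR FDR 7.11e-13) in MSCs and 1.73 (SE 0.0581, edgeR FDR 7.73e-13) in osteocytes. Rora spans chromosome 9 from 68653786 to 69388246 on the plus strand, and the antisense gene Gm15511 that shares 82 of its exonic bases had 0 counts in every library.

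Mxi1 and Ccng2 are brakes on proliferation. Mxi1 binds MAX in place of MYC and represses genes that MYC drives. Its level rose from 32.8, 38.2 and 35.8 CPM to 130.5, 132.1 and 134.1 CPM in MSCs and from 32.0, 36.5 and 34.8 CPM to 183.3, 184.2 and 198.8 CPM in osteocytes. The vehicle libraries of both cell types overlapped, while the treated osteocytes were all above the treated MSCs. The log2 fold changes were 1.89 (SE 0.0630, edgeR FDR 9.0e-13) and 2.45 (SE 0.0640, edgeR FDR 3.17e-14).

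Ccng2 encodes cyclin G2, an unusual cyclin that holds cells back from dividing. Its level rose from 42.6, 45.0 and 46.8 CPM to 133.1, 132.2 and 133.3 CPM in MSCs. In osteocytes it rose from 43.0, 37.2 and 33.5 CPM to 184.4, 192.1 and 186.6 CPM. The log2 fold changes were 1.57 (SE 0.0703, edgeR FDR 3.97e-11) and 2.31 (SE 0.0718, edgeR FDR 2.94e-13). Mxi1 lies on chromosome 19 (53310518 to 53375810) and Ccng2 on chromosome 5 (93267257 to 93276231), both on the plus strand. Ccng2 shares no exonic base with another gene, and the gene that shares 194 bases with Mxi1 had at most 2 counts.

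Ddit4 and Sesn2 both dampen mTORC1 and behaved differently. Ddit4, also called REDD1, acts through the TSC complex. Its level was 35.9, 38.4 and 27.8 CPM in vehicle-treated MSCs and 52.1, 47.1 and 40.4 CPM with FG-4592. In osteocytes it was 19.1, 24.4 and 25.0 CPM with vehicle and 56.1, 64.7 and 68.5 CPM with FG-4592. Treated and vehicle libraries did not overlap in either cell type, although in MSCs the gap between the nearest libraries was small. The log2 fold change was 0.45 (SE 0.126, edgeR FDR 0.00927) in MSCs, short of the fold cutoff, and 1.47 (SE 0.129, edgeR FDR 1.15e-07) in osteocytes. Without the first FG-4592-treated MSC library the value in MSCs was 0.36, with an edgeR FDR of 0.0507. Ddit4 varied more between replicates than Cited2, with a coefficient of variation of 10.1% to 16.3% over the conditions against 2.83% to 5.34%.

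Sesn2, a leucine sensor that restrains mTORC1 and is better known as a target of p53 and ATF4, was not called in either cell type. Its level was 31.6, 30.6 and 32.7 CPM in vehicle-treated MSCs and 25.8, 27.2 and 24.8 CPM with FG-4592, so that the treated libraries were all lower. Osteocytes had 26.6, 28.0 and 26.9 CPM with vehicle and 28.7, 24.6 and 26.6 CPM with FG-4592, which overlap. The log2 fold change was -0.29 in MSCs (SE 0.0695, edgeR FDR 0.00366), past the FDR cutoff and short of the fold cutoff. In osteocytes it was -0.03 (95% interval -0.18 to 0.12, edgeR FDR 0.787), an interval that leaves out a change as large as the rise of Ddit4. Ddit4 lies on chromosome 10 (59949669 to 59951834) and Sesn2 on chromosome 4 (132492032 to 132510501), both on the minus strand with no shared exonic base.

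Ndrg1, a cytoplasmic protein linked to growth arrest and long known to rise in hypoxia, went from 25.8, 26.7 and 26.8 CPM to 161.0, 178.3 and 178.3 CPM in MSCs. In osteocytes it went from 25.7, 19.1 and 20.9 CPM to 198.5, 221.0 and 228.6 CPM. This was a 6.52-fold rise in MSCs (95% interval 5.72 to 7.44, edgeR FDR 8.33e-13) and a 9.84-fold rise in osteocytes (8.60 to 11.3, edgeR FDR 6.95e-14). Ndrg1 was second to Ankrd37 among the 10 in both cell types. It lies on chromosome 15 (66929318 to 66969640, minus strand), and the noncoding genes that share exonic bases with it had at most 4 counts.

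Ankzf1 encodes the protein that releases unfinished chains from stalled ribosomes. Its level rose from 15.1, 16.6 and 16.5 CPM to 40.3, 37.7 and 37.0 CPM in MSCs and from 13.4, 14.4 and 12.3 CPM to 39.3, 43.0 and 42.1 CPM in osteocytes. The log2 fold changes were 1.25 (SE 0.0746, edgeR FDR 1.41e-09) and 1.63 (SE 0.0755, edgeR FDR 4.42e-11). On chromosome 1 (75192151 to 75199387, plus strand) it shares 505 of 5142 exonic bases with Glb1l and 46 with Atg9a, both on the other strand. A read pair in the shared bases was counted for both genes. Glb1l had 1762 to 4772 counts and Atg9a 1835 to 4622, where Ankzf1 had 755 to 2628. The part of the Ankzf1 counts that came from these bases was not measured. Glb1l was lower with FG-4592 by log2 values of -0.43 and -0.64 in MSCs and osteocytes, and Atg9a was higher by 0.78 and 0.67.

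Stc2 encodes stanniocalcin 2, a secreted glycoprotein that blocks the protease PAPP-A and so limits free insulin-like growth factor. It was scarce, with 7, 8 and 17 counts in vehicle-treated MSCs and 10, 16 and 5 with FG-4592, or 0.0781 to 0.267 CPM over these 6 libraries. Osteocytes had 104, 104 and 111 counts with vehicle (1.57, 1.87 and 1.80 CPM) and 201, 185 and 200 with FG-4592 (3.09, 3.03 and 3.30 CPM). The treated osteocytes were all above the vehicle-treated ones, and in MSCs the groups overlapped. The log2 fold change was -0.13 in MSCs (95% interval -1.03 to 0.77, edgeR FDR 0.843). In osteocytes it was 0.85 (SE 0.285, edgeR FDR 0.0241), short of the fold cutoff. That FDR was 0.0754 without vehicle-treated osteocyte library 1, and 0.0638, 0.0516 and 0.0767 without treated osteocyte libraries 1, 2 and 3. Stc2 lies on chromosome 11 (31357307 to 31370074, minus strand) with no shared exonic base.

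**Figure D2:**
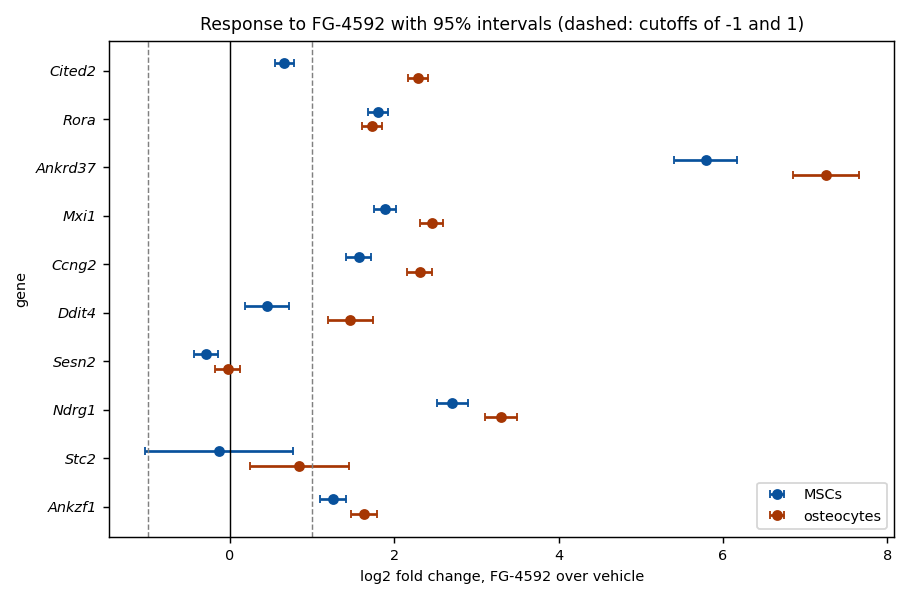
Log2 fold change with FG-4592 over vehicle (horizontal axis) of each gene (vertical axis) in MSCs (blue) and osteocytes (brown), with 95% intervals from edgeR and dashed lines at the cutoffs of -1 and 1. Cited2 moves from 0.66 in MSCs to 2.29 in osteocytes, Rora has 1.80 and 1.73, and the intervals of Sesn2 lie close to 0.

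The response was larger in osteocytes than in MSCs for several of these genes. The difference was tested as an interaction, the log2 fold change in osteocytes minus that in MSCs. Cited2, Ankrd37 and Ddit4 were called with a larger response in osteocytes, 3 of 10 against 3.94% of all genes. At an FDR under 0.05 and any fold, 7 of 10 had a larger response in osteocytes, against 13.3% of all genes. These shares are descriptive as well. The difference was 1.63 for Cited2 (SE 0.0751, edgeR FDR 4.67e-10) and 1.46 for Ankrd37 (SE 0.339, edgeR FDR 0.00470). For Ddit4 it was 1.02 (SE 0.179, edgeR FDR 0.000583), at the edge of the fold cutoff. It fell under the cutoff at 0.99 with RLE factors or with DESeq2, and at 0.93 and 0.87 without vehicle-treated MSC libraries 1 and 2. It was also under the cutoff without treated MSC library 3 (0.92), vehicle-treated osteocyte library 1 (0.85) and treated osteocyte libraries 2 (0.99) and 3 (0.95), with an FDR of at most 0.00293 in edgeR over these fits.

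Ccng2 (0.74, edgeR FDR 4.36e-05), Ndrg1 (0.59, edgeR FDR 0.00185), Mxi1 (0.56, edgeR FDR 0.000188) and Ankzf1 (0.38, edgeR FDR 0.0144) passed the FDR cutoff with differences under 1. For Ankzf1 the FDR was 0.0720 and 0.0674 without vehicle-treated MSC libraries 2 and 3. Rora gave -0.07 with a 95% interval of -0.24 to 0.10 (edgeR FDR 0.566), so a difference as large as that of Mxi1 lies outside its interval. Sesn2 gave 0.26 (0.05 to 0.47, edgeR FDR 0.0690), and its FDR was 0.0377 without treated osteocyte library 2. Stc2 gave 0.98 with the wide interval of -0.11 to 2.07 (edgeR FDR 0.189). The median difference of the 10 was 0.67, against 0.05 over all genes and 0.11 over a list of 20 other HIF targets, of which edgeR called 1 with a positive (Vegfa) and 2 with a negative difference (Hk2 and Pfkfb3), against 3.94% and 1.07% of all genes. DESeq2 also called Adm positive (5.66, DESeq2 FDR 0.0359), which had at most 6 counts outside treated osteocytes and an edgeR FDR of 0.101.

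Levels at both ends of the comparison entered these differences. For 7 of the 10 genes the order of the condition means was FG-4592-treated osteocytes, FG-4592-treated MSCs, vehicle-treated MSCs and vehicle-treated osteocytes, from high to low. These were Cited2, Mxi1, Ddit4, Ccng2, Ankrd37, Ankzf1 and Ndrg1. How many of all genes share this order was not counted. Neighbouring libraries overlapped between the vehicle conditions for Mxi1, Ccng2 and Ankrd37, and between the treated conditions for Ankzf1. Cited2 was lower in osteocytes than in MSCs with vehicle (log2 -0.47, edgeR FDR 1.65e-06) and higher with FG-4592 (1.15, edgeR FDR 2.30e-11). Ddit4 likewise had -0.58 (edgeR FDR 0.00134) with vehicle and 0.44 (edgeR FDR 0.00680) with FG-4592. With FG-4592, Mxi1 was higher in osteocytes by 0.51, Ccng2 by 0.50 and Ndrg1 by 0.32 on the log2 scale.

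**Figure D3:**
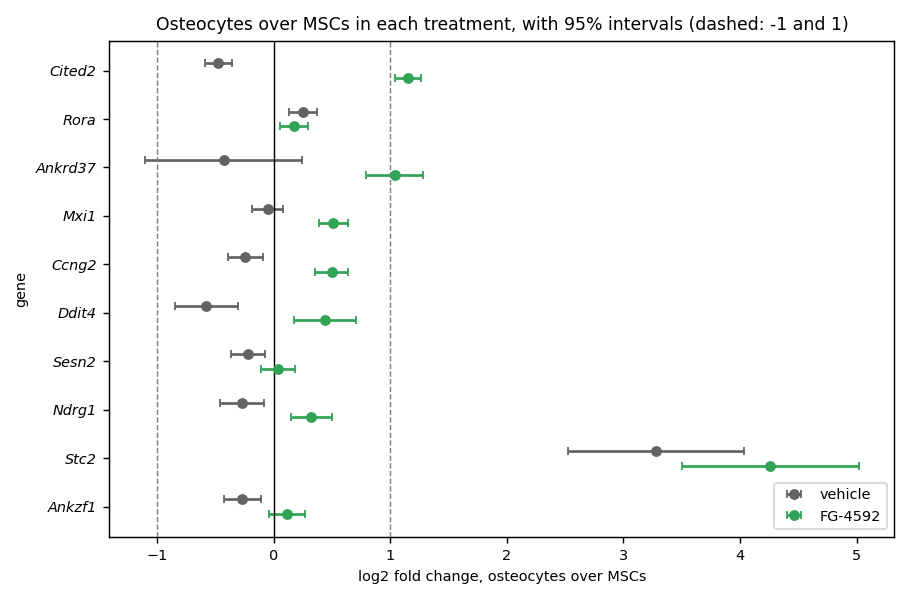
Log2 fold change of osteocytes over MSCs (horizontal axis) for each gene (vertical axis) in vehicle (grey) and in FG-4592 (green), with 95% intervals from edgeR and dashed lines at -1 and 1. Cited2 crosses from -0.47 to 1.15 and Ddit4 from -0.58 to 0.44, while Stc2 lies at 3.28 and 4.26.

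In vehicle alone Stc2 was the 1 gene of the 10 called between the cell types, against 9.83% of all genes called higher in osteocytes. It was 9.71-fold higher in osteocytes (95% interval 5.76 to 16.4, edgeR FDR 1.01e-06). With FG-4592, 3 of 10 were called higher in osteocytes, against 12.6% of all genes. These were Stc2 (log2 4.26, 19.2-fold, edgeR FDR 3.81e-08), Cited2 and Ankrd37. Ankrd37 had 1.04 (edgeR FDR 1.21e-06) and fell to 0.99 with library size alone, to 0.995 without treated MSC library 3 and to 0.97 without treated osteocyte library 3. The adipocyte and cartilage sums given above moved with these comparisons. So did the blood and vessel sum, with 8.86 to 9.13 CPM in MSCs and 18.8 to 21.0 in osteocytes with vehicle. With FG-4592 it was 3.43 to 5.07 CPM in MSCs and 11.2 to 13.5 in osteocytes. The part of these markers in the comparisons was not tested.

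Between genes, levels were compared per length as RPKM, the CPM divided by exonic length in kilobases. Cited2 had the highest RPKM of the 10 in each condition, with 44.2 ± 1.25 (SD, n = 3) in vehicle-treated MSCs, 70.0 ± 2.08 with FG-4592, 31.8 ± 1.68 in vehicle-treated osteocytes and 155.5 ± 8.31 with FG-4592. Ddit4 was second in each condition, with 19.4 ± 3.17, 26.5 ± 3.35, 13.0 ± 1.84 and 35.9 ± 3.62 RPKM in the same order, close in both treated conditions to Ndrg1 and Ccng2. In treated osteocytes Ccng2 had 34.4 ± 0.732 RPKM and Ndrg1 32.8 ± 2.38, both within the spread of Ddit4. Sesn2 stood in place 3 with vehicle in both cell types, at 9.10 ± 0.308 and 7.82 ± 0.215 RPKM, and in places 8 and 9 with FG-4592. Stc2 had the lowest RPKM in 3 of the 4 conditions and Ankrd37 in vehicle-treated osteocytes.

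The members' pathways were described with lists of other genes, each by its calls and its median. Of 20 other HIF targets, 16 rose in MSCs and 18 rose and 1 fell in osteocytes, with medians of 2.55 and 2.97. Of 12 genes that encode or regulate HIF, 2 rose in MSCs, and 3 rose and 2 fell (Cited4 and Arnt2) in osteocytes. Counts in these lists stand against 4.12% of all genes called higher and 5.17% called lower in MSCs, and 6.25% and 4.26% in osteocytes. Egln1, the oxygen-sensing hydroxylase PHD2, rose from 57.2 ± 0.422 to 497.3 ± 11.5 CPM (SD, n = 3) in MSCs (log2 3.12, edgeR FDR 2.18e-16) and from 75.6 ± 3.11 to 620.8 ± 27.5 CPM in osteocytes (3.04, edgeR FDR 2.62e-16). Vhl, which targets hydroxylated HIF for destruction, rose in MSCs by 1.19 (edgeR FDR 8.87e-11) and in osteocytes by 1.08 (edgeR FDR 1.81e-10), a value that was 0.98 with library size alone. Egln3, a further hydroxylase, had 0 to 33 counts in vehicle-treated osteocytes and 879 to 1051 with FG-4592 (log2 6.03, SE 0.47, edgeR FDR 1.16e-07), while MSCs had at most 1 count. Its log2 fold change was 7.33 without vehicle-treated osteocyte library 1. Arnt2, a relative of the HIF partner ARNT, fell in osteocytes from 4.29 ± 0.593 to 1.31 ± 0.120 CPM (SD, n = 3; log2 -1.71, edgeR FDR 2.96e-05). It was not called in MSCs, where it had 0.56 (edgeR FDR 0.116), and the difference between the responses was -2.27 (edgeR FDR 0.000259), the 1 call of this list in that test. Over all genes the difference was called in the direction of Arnt2 for 1.07%.

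No gene of the MYC and MAX network (11 tested) was called in edgeR or DESeq2 in either cell type. At an unadjusted p under 0.05 in edgeR, 4 of the 11 were higher and 2 lower in MSCs, and 4 were higher and 3 lower in osteocytes. At that threshold 20.7% of all genes were higher and 25% lower in MSCs, and 24.9% and 25% in osteocytes, and these shares are the background for the counts at an unadjusted p that follow. Of 20 MYC target genes, which serve ribosome assembly and growth, none was called in edgeR or DESeq2 in either cell type. Their median log2 fold change was 0.05 in MSCs and -0.45 in osteocytes. At an unadjusted p under 0.05 in edgeR, 7 were higher and 3 lower in MSCs, and 17 were lower and 0 higher in osteocytes. The median of the difference between the responses was -0.40, with 16 of 20 lower at an unadjusted p under 0.05 in edgeR, against 15.9% of all genes, and 0 called in edgeR or DESeq2.

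Among 17 other brakes on mTORC1, 1 rose in each cell type, a share near those of all genes (4.12% and 6.25%). This was Prkab2, a subunit of the energy sensor AMPK, with log2 fold changes of 1.27 (edgeR FDR 1.58e-09) and 1.07 (edgeR FDR 7.92e-09). The value in osteocytes was 0.97 with library size alone. The 1 brake called in the difference between the responses was Deptor, an mTOR inhibitor, which had 0.58 in MSCs and -0.58 in osteocytes, neither past the fold cutoff, and a difference of -1.16 (edgeR FDR 1.08e-08), against 1.07% of all genes called negative. Of 12 core genes of mTORC1 and its outputs, 2 rose in MSCs (Rragd and Eif4ebp1) and 1 in osteocytes (Eif4ebp1), genes named after their values were seen. DESeq2 also called Rragb lower in osteocytes (log2 -1.31, DESeq2 FDR 0.0305), where edgeR gave an FDR of 0.0532. Of 12 genes of ribosome quality control beside Ankzf1, none was called in edgeR or DESeq2 in either cell type. At an unadjusted p under 0.05 in edgeR, 7 were higher and 2 lower in MSCs, and 6 were higher and 2 lower in osteocytes.

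ATF4 is a stress factor that controls Sesn2, Ddit4 and Stc2. Its list held 19 other tested genes, Atf4 itself among them. In MSCs 7 of them rose, led by Slc7a11 (log2 4.41, edgeR FDR 4.04e-06) and Vldlr (3.38, edgeR FDR 1.95e-14). In osteocytes 5 rose and 1 fell, led by Vldlr (4.86, edgeR FDR 1.78e-15) and Nupr1 (2.62, edgeR FDR 2.42e-13). Slc7a11 imports cystine, Vldlr is a lipoprotein receptor that HIF also controls, and Nupr1 is a stress-induced nuclear protein. The medians of the 19 were 0.53 in MSCs and 0.12 in osteocytes. The difference between the responses, osteocytes minus MSCs, was called positive for 3 of the 19 (Vldlr, Nupr1 and Cebpb) and negative for 3 (Trib3, Phgdh and Slc7a11), against 3.94% and 1.07% of all genes. The median difference of the 19 was -0.50. At an unadjusted p under 0.05 in edgeR, 11 of the 19 differences were lower, against 15.9% of all genes, and 4 were higher. Of 14 relatives of the 10 genes, 1 rose in MSCs and 1 rose and 1 fell in osteocytes, shares near those of all genes (4.12% higher in MSCs, 6.25% higher and 4.26% lower in osteocytes). Ndrg2, a relative of Ndrg1, rose from 0.536 ± 0.199 to 16.2 ± 1.17 CPM (SD, n = 3) in MSCs (log2 4.94, edgeR FDR 3.41e-12) and from 8.86 ± 1.33 to 29.3 ± 2.24 CPM in osteocytes (1.73, edgeR FDR 2.36e-08). Its difference between the responses, osteocytes minus MSCs, was -3.21 (edgeR FDR 7.60e-08), the 1 such call among the relatives. Cited4, a relative of Cited2, had 20 to 56 counts in vehicle-treated and 4 to 12 in treated osteocytes (log2 -2.15, edgeR FDR 0.0257) and 0 counts in MSCs. Its FDR was 0.0982 without vehicle-treated osteocyte library 3, and 0.0758 and 0.0848 without treated osteocyte libraries 1 and 2.

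**Figure D4:**
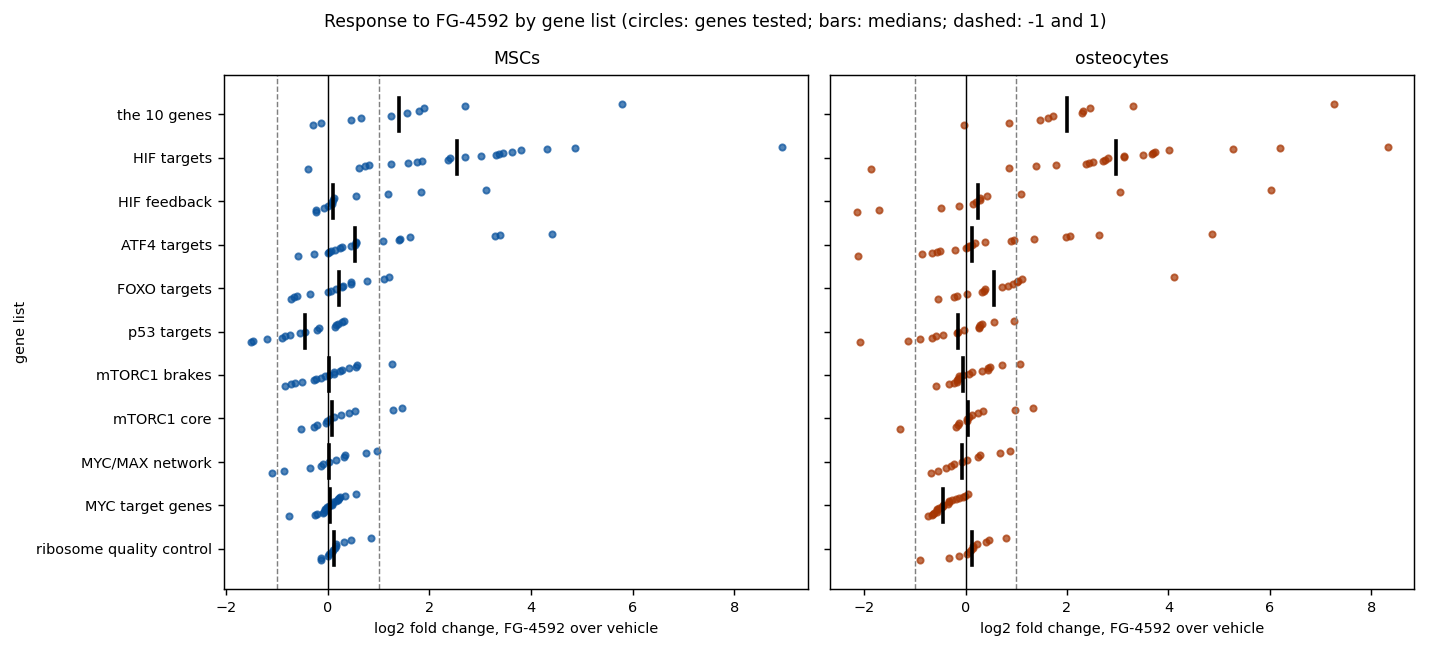
Log2 fold change with FG-4592 over vehicle (horizontal axis) of every gene tested in each list (vertical axis), in MSCs (left) and osteocytes (right). Circles are genes, bars are medians and dashed lines mark -1 and 1. The medians of the 10 genes are 1.41 and 2.01, those of the other HIF targets 2.55 and 2.97, and that of the MYC target genes in osteocytes is -0.45.

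Likeness between genes was measured as the root mean square difference of their log2 CPM over the 4 condition means, each centred on its own average. Among the 10, Mxi1 and Ccng2 were most alike, at 0.137. Over 9874 other protein-coding genes with a mean of at least 5 CPM, the gene nearest to Mxi1 was Bhlhe40 (0.0634), a HIF-induced circadian repressor. The nearest to Ccng2 was Shc4 (0.0492), to Cited2 Prg4 (0.144), to Rora Spidr (0.0755) and to Ddit4 Rasa4 (0.0376). Ndrg1 was nearest to Maff (0.176), Ankzf1 to Fam117b (0.0176), Sesn2 to Dnajc19 (0.0181) and Stc2 to Mfap5 (0.159). These are descriptions over 4 points that share libraries.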

How the data were processed

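RNAseq was done on 12 libraries of MPC2 cells, 3 per condition, which the labels assign to cell type and treatment. Per the submitters' processing notes and the study's methods, the authors used STAR 2.7.2a to align 100-base read pairs to mm10 and featureCounts (Subread 1.6.2) to count them per Gencode gene, with a minimum mapping quality of 10, each pair counted for every gene it overlaps and without strand. The authors deposited raw counts per gene, all 12 columns of which were used, with exonic lengths.

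The 16484 genes that exceeded 10 counts in 3 or more libraries were fitted in edgeR 4.0.16 (R 4.3.3) with TMM factors, 1 coefficient per condition and the quasi-likelihood test. CPM are counts over the normalized library size. The fit was tested on simulated data: in the interaction it recovered 94 of 100 genes of log2 size 2 with 2 false calls among 16023 genes. Only log2 sizes of 2 and 3 were simulated, in genes with many counts. Recovery of smaller differences, or of genes with few counts, was not tested.

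The 10 genes and the lists were chosen with earlier results of these data known. From the lists, values are given for the 2 largest changes past both cutoffs in the lists of HIF regulators, MYC and MAX network, mTORC1 brakes, relatives and ATF4 targets, in each cell type. Vhl and Arnt2 in osteocytes, the interactions of Arnt2, Deptor and Ndrg2, Adm, Rragb and the bone markers were added after their values were seen. Likeness used a pseudocount of 0.1 CPM, and the gene nearest to Ankrd37 is not reported here. Where a symbol occurred more than once, the row with the larger total was used (4 symbols). Alternatives were RLE factors, library size alone, the likelihood ratio test, DESeq2 1.42.0, other filters, only the libraries compared, a replicate block, no fold cutoff and each library left out. Promoter windows came from RefSeq. Replicate pairs differed by more than counting noise (chi-square per degree of freedom 11.1 to 44.3).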

Additional observations from a re-analysis of the deposited data

Results flagged for a closer look

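The response to FG-4592 differed between the 2 cell types for 7 of the 10 genes by the interaction test in edgeR, each with the larger response in osteocytes, against 13.3% of all genes in that direction at the same FDR cutoff. The difference in log2 fold change was 1.63 for Cited2, 1.46 for Ankrd37 and 1.02 for Ddit4, the genes past both cutoffs. It was 0.74 for Ccng2, 0.59 for Ndrg1, 0.56 for Mxi1 and 0.38 for Ankzf1, which passed the FDR cutoff alone. Ddit4 fell under the fold cutoff, to 0.85 at the lowest, with 6 of the 12 libraries left out in turn and with RLE factors or DESeq2, and the edgeR FDR of Ankzf1 reached 0.0720 without vehicle-treated MSC library 2 and 0.0674 without library 3. Temperature and media differed between the cell types together with differentiation, and their parts cannot be told apart.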

How the results depend on the processing

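Over 799 repeats of the members' log2 fold changes under other settings, 768 kept their call under the combined cutoffs (some crossed the FDR cutoff alone), 11 lost a call (Ddit4 in the interaction and Ankrd37 between treated cells, given with those results) and 20 gained one when the fold cutoff was dropped. Of 327 repeats for 21 called values of list genes (13 by the naming rule, 8 for Vhl, Arnt2, Deptor, Ndrg2, Phex, Dmp1 and Fgf23), added after the data were seen, 5 lost the call (Prkab2, Cited4 and Vhl). Leaving out each library gave 6 of the 10 genes called higher in MSCs and 8 in osteocytes throughout, and 2 to 3 in the interaction and between treated cells. With an FDR under 0.05 and no fold cutoff, 8 of the 10 were higher and 1 lower in MSCs, 9 were higher in osteocytes, 7 had a larger response in osteocytes, 2 were higher and 6 lower in vehicle-treated osteocytes, and 8 were higher in treated osteocytes. The 6 lower became 2 without vehicle-treated MSC library 3, 3 without library 2, and 4 without vehicle-treated osteocyte library 2 or with only the libraries compared. Over all genes that setting gave 2904 higher and 3369 lower in MSCs, 3609 and 3619 in osteocytes, 2194 and 1815 in the interaction, 4288 and 4111 between vehicle-treated cells, and 5021 and 4172 between treated cells. With library size alone 9 of the 10 genes kept the order of their condition means, and for Sesn2 the 2 treated conditions changed places. That scaling moved the median of all genes in MSCs to -0.13.

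Same-numbered libraries did not deviate together (18 pairs, correlations of -0.135 to 0.0543, 3 of 18 best with their own number). With the replicate block, 6 of the 10 were called higher in MSCs, 8 in osteocytes and 3 in the interaction, with 653, 1011 and 606 genes over all. The 3 libraries per condition and 5 to 17 counts for Ankrd37 and Stc2 in some conditions limit the precision, and an exact permutation test of 3 against 3 libraries could not go below p = 0.1.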

Other observations

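The 10 genes touch 2 further stress programmes. Of 15 tested p53 targets other than Sesn2 itself, 3 fell in MSCs (Eda2r, Btg2 and Fas), against 5.17% of all genes, and 2 in osteocytes (Trp53inp1 and Gdf15), against 4.26%. Their medians were -0.44 and -0.16. FOXO factors also control Ccng2, and their list of 14 tested genes held targets and the factors Foxo1, Foxo3 and Foxo4 themselves. Of these, 1 rose in MSCs (Txnip), against 4.12% of all genes, and 4 in osteocytes (Foxo3, Irs2, Pik3ip1 and Txnip), against 6.25%, with medians of 0.21 and 0.55. In the test of the difference between the responses, 2 genes of the FOXO list (Pik3ip1 and Txnip) were called with a positive difference, osteocytes minus MSCs, against 3.94% of all genes. In the p53 list 1 difference was called positive (Btg2) and 1 negative (Gdf15), against 3.94% and 1.07% of all genes. These genes were named after their values were seen.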
